A study of Mus musculus with 23 samples.

Results

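Pnoc, Cck, Penk and Npy each encode the precursor of a neuropeptide, and their mRNA was followed through 4 stages of blood formation in culture, with and without the leukaemic fusion protein RUNX1-ETO. They are 4 of 20145 genes with a probe on the array and of 15202 genes called expressed, which were those whose normalised log2 intensity reached 6.5 on 1 array or more. The 4 were picked by name with their differences after doxycycline (Dox) on these arrays known, under the heading of precursors switched on by RUNX1-ETO. The Dox differences of the 4 genes are therefore a description and carry no P value. Pnoc was higher with Dox at every stage and Cck from HE2 onwards, while the arrays of Cck overlapped in HE. Both were flagged well above background on all uninduced HE and HE2 arrays. Pnoc read 7.05 to 8.95 there, so it was not off without Dox. Cck read 5.70 to 6.46, under the 6.5 of the expression filter. An uninduced myeloid array at 5.68 was not flagged for Cck, so the flag does not settle whether Cck was off. The heading did not hold for Penk and Npy. Penk was at most 1.89-fold higher with Dox at any stage, and Npy was 2.61-fold lower with Dox in myeloid progenitors.

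All cells came from 1 line of mouse embryonic stem (ES) cells, labelled C57BL/6, with intact Runx1 and a transgene for human RUNX1-ETO behind a Dox-responsive promoter, so that the uninduced cells carried the transgene too. Haemogenic endothelium (HE, endothelium that gives rise to blood), HE2 cells (which have gained the surface marker CD41 and still carry Tie2) and CD41+KIT+Tie2- progenitors were sorted on day 2 of blast culture, after Dox at 0.1 μg per ml from day 1 or without it. Myeloid progenitors were grown from KIT+CD41+ cells in medium with cytokines, with Dox for 12 h or without. There were 3 arrays for each of 6 groups, 2 each of uninduced and induced progenitors, and 1 additional array of uninduced progenitors, titled a technical replicate, that entered the normalisation and not the fit.

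Neuropeptides are cut from larger precursor proteins in the secretory pathway by proprotein convertases, trimmed by carboxypeptidases and stored in dense-core vesicles until release. They act outside the cell, nearly all through G protein-coupled receptors. Prepronociceptin (Pnoc) yields nociceptin, the ligand of the opioid-like receptor Oprl1. Cholecystokinin (Cck) is a hormone of the gut and a transmitter of the brain and binds Cckar and Cckbr. Proenkephalin (Penk) yields the enkephalins, opioid peptides made by neurons and also by activated lymphocytes. Neuropeptide Y (Npy) binds the Y receptors and is made by sympathetic neurons.

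Each of the 4 genes had 1 probe on the array. The bases just upstream of the transcription start are shown for the members listed in the RefSeq promoter table of GRCm38.p6, namely Cck, which was much higher with Dox at 3 stages, and Npy, which was not. They cover 250 bases up to the start site, at chr9:121495695-121495944 on the minus strand for Cck and at chr6:49822460-49822709 on the plus strand for Npy. Capitals mark a match to any of 4 motifs searched on both strands, which were TGTGGT and TGCGGT (the letters bound by RUNX proteins), TGACG (the core of a cAMP response element) and TGANTCA (AP-1).
Cck: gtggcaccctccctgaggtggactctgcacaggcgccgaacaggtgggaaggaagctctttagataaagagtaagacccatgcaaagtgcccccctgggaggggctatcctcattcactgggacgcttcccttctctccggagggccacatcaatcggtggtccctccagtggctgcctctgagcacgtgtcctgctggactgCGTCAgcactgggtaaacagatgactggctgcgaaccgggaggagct
Npy: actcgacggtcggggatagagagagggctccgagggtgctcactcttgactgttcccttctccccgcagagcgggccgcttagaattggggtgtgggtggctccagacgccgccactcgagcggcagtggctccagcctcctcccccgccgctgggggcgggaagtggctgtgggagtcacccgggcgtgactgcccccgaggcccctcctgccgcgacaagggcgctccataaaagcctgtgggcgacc
Cck held 1 match, TGACG on the minus strand, beginning 47 bases before the start, and Npy held 0. Among 32851 promoter windows of this length, TGTGGT was found in 14%, TGCGGT in 5.1%, TGACG in 17.8% and TGANTCA in 6.75%. The matches overlapped no other motif, and a motif outside this window would not have been seen.

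Levels are given below as normalised log2 intensities of 1 probe, which allow a gene to be compared between samples and not with another gene. In bulk RNA, a change in the number of cells that make a transcript and a change in the amount per cell cannot be told apart. Between 48.8% and 78.4% of the spots of an array were well above background. All arrays of myeloid progenitors, the second induced progenitor array and the additional array lay on slide 3, scanned on another day than slides 1 and 2. The mouse probe for Runx1t1, the gene of the ETO part of the fusion, was read beside the induction. It was well above background on all 23 arrays, with and without Dox. Whether it reads the human transgene, the mouse gene or both was not tested. It read 10.56 to 11.14 in uninduced HE and 11.81 to 12.44 in induced HE, a difference of 1.24 (SE 0.33) that missed the threshold (adjusted P = 0.0155 in limma). With Dox it rose by 2.08 in HE2 cells, by 3.96 in the progenitors and by 2.06 in the myeloid progenitors, whereas Runx1 passed the threshold with Dox at 0 of 4 stages. The summed intensity of 8 endothelial markers was 293414 to 403114 in uninduced HE and 65280 to 76139 in uninduced myeloid progenitors, and that of 8 markers of haematopoietic progenitors was 11066 to 15014 and 78922 to 92728.

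Pnoc was higher with Dox at every stage. In HE it read 7.95, 8.23 and 8.95 without Dox and 10.24, 10.76 and 10.69 with Dox, a difference of 2.19 (SE 0.28) or 4.55-fold. In HE2 the uninduced arrays read 7.05, 7.30 and 7.66 and the induced arrays 10.40, 10.07 and 11.02, a difference of 3.16 (SE 0.28) or 8.96-fold. No uninduced array of either stage reached the lowest induced array, as was the case for 14.2% of expressed genes in HE and 17% in HE2. The progenitors read 5.68 and 5.22 without Dox, the second not well above background, and 10.46 and 9.81 with Dox, a difference of 4.69 (SE 0.35) or 25.7-fold. In myeloid progenitors the probe was not well above background on any of 3 uninduced arrays (5.26, 5.63 and 5.78). With Dox it read 11.27, 11.20 and 11.09, a difference of 5.63 (SE 0.28) or at least 49.5-fold. That bound holds for the main processing only, as the difference was 4.86 with offset 50. All induced arrays lay above the uninduced ones at these later stages too, as for 22.6% and 23.9% of expressed genes. The induced arrays lay in a narrow band across stages, with group means of 10.14 to 11.19, while the uninduced means ran from 5.45 to 8.38. In the order of group means, induced myeloid progenitors came first and did not overlap the next group, the induced arrays of the other 3 stages overlapped in range, and uninduced HE, HE2 and the last pair, myeloid progenitors and progenitors, followed.

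**Figure D1:**
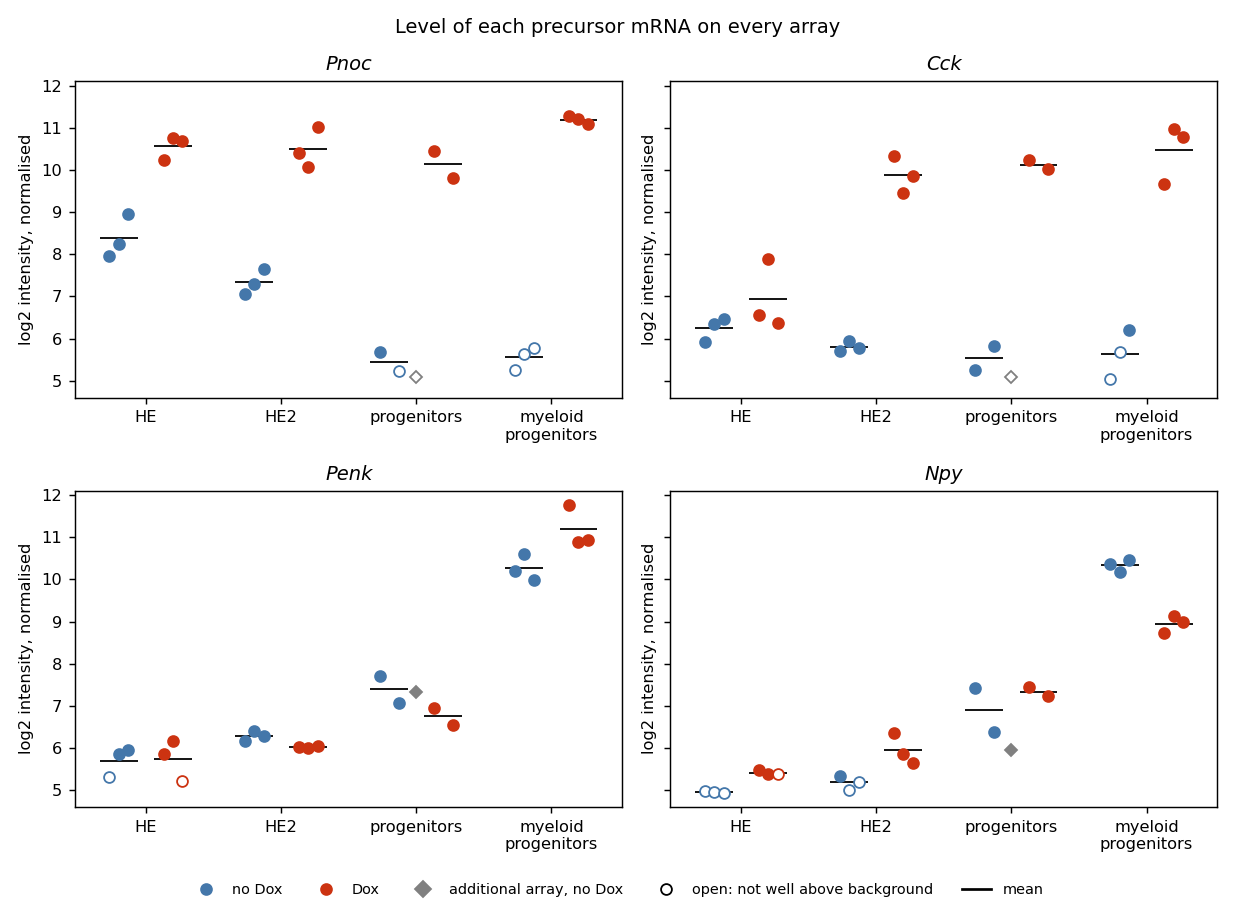
Normalised log2 intensity of the probe of each gene on every array, by stage on the x axis, without Dox (blue) and with Dox (red). Lines mark group means, open symbols arrays where the probe was not well above background, and the diamond the additional uninduced progenitor array, left out of the means. The 2 upper panels show Pnoc and Cck, whose induced arrays lie between 9.46 and 11.27 from HE2 on, and the 2 lower panels Penk and Npy, whose levels followed the stage, with the highest values in myeloid progenitors.

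Cck was higher with Dox from HE2 onwards. In HE the uninduced arrays read 5.92, 6.35 and 6.46 and the induced arrays 6.57, 7.88 and 6.37, so that the groups overlapped and 1 induced array stood above the rest (difference 0.70, SE 0.39, and 0.23 without that array). In HE2 it read 5.70, 5.95 and 5.79 without Dox and 10.32, 9.46 and 9.86 with Dox, which is 16.8-fold higher (difference 4.07, SE 0.39). In progenitors the values were 5.25 and 5.81 against 10.22 and 10.03, a difference of 4.59 (SE 0.48) or 24.1-fold. The gap between induced and uninduced arrays in these stages was wider than the spread of either group. Uninduced myeloid progenitors read 5.05, 5.68 and 6.21, of which 1 was well above background, and induced ones 9.67, 10.97 and 10.78, a difference of 4.83 (SE 0.39) or 28.4-fold. The induced arrays of these 3 stages overlapped in range and made up the top of the order of group means, and the other 5 groups overlapped from one to the next. Among induced arrays, the mean of Cck was 6.94 in HE and 9.88 in HE2, whereas that of Pnoc was 10.56 and 10.50.

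Penk differed little with Dox and strongly between stages. It read 5.31, 5.86 and 5.95 in uninduced HE and 5.85, 6.17 and 5.22 in induced HE, where the groups overlapped (difference 0.04, SE 0.27). In HE2 the values were 6.17, 6.41 and 6.28 without Dox and 6.03, 6.01 and 6.06 with Dox, and in progenitors 7.72 and 7.08 without Dox and 6.96 and 6.55 with Dox. The induced arrays of these 2 stages lay below the uninduced ones, by 0.25 (SE 0.27) and 0.65 (SE 0.34), a separation that 15.2% and 26.4% of expressed genes showed. In myeloid progenitors the order was the opposite, with 10.21, 10.61 and 9.997 without Dox and 11.77, 10.89 and 10.93 with Dox. That difference was 0.92 (SE 0.27) or 1.89-fold, with all induced arrays above the uninduced, as for 23.9% of expressed genes. Without the first induced myeloid array it was 0.63. By group means Penk was highest in induced myeloid progenitors, then in uninduced ones, uninduced progenitors, induced progenitors and uninduced HE2, none of which overlapped its neighbour, and the ranges of induced HE2, induced HE and uninduced HE overlapped.

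Npy also followed the stage. Its probe was not well above background on any uninduced HE array (4.996, 4.958 and 4.945). In induced HE it read 5.48, 5.39 and 5.38, the last not well above background. The difference was 0.45 (SE 0.22), or at least 1.37-fold, under the main processing and 0.24 with offset 50. In HE2 it read 5.35, 5.01 and 5.203 without Dox and 6.35, 5.86 and 5.65 with Dox, a difference of 0.77 (SE 0.22), and in progenitors 7.44 and 6.39 against 7.45 and 7.23, where the groups overlapped (difference 0.42, SE 0.27, but 0.95 without the first and -0.097 without the second uninduced array). The induced arrays lay above all uninduced ones in HE and HE2, as for 14.2% and 17% of expressed genes. In myeloid progenitors Npy was lower with Dox, at 8.72, 9.13 and 8.99 against 10.36, 10.17 and 10.47 on the uninduced arrays. This difference of -1.39 (SE 0.22), or 2.61-fold, ran against those in HE and HE2, which were small and near background. At this stage 22.7% of expressed genes had all induced arrays below the uninduced. The order of Npy by group means ran from uninduced to induced myeloid progenitors, then to induced and uninduced progenitors, whose ranges overlapped, and on to induced HE2 and induced HE. Uninduced HE2, well above background on 1 of 3 arrays, and uninduced HE, on 0 of 3, came last and have no order between them.

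**Figure D2:**
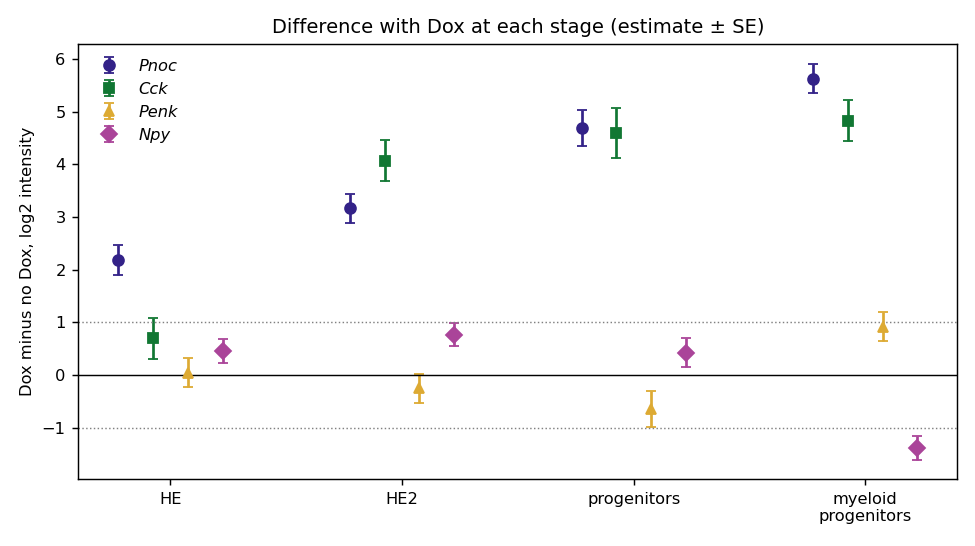
Difference between induced and uninduced arrays (log2 intensity, y axis) for the 4 genes at each stage, with the limma estimate as a point and its standard error as a bar. Dotted lines mark a 2-fold difference in either direction. Pnoc passes it at 4 stages and Cck at 3, Penk at 0, and Npy at 1, in myeloid progenitors and downwards.

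By the threshold used for all genes (unadjusted P of at most 0.001 and at least 2-fold), 1 member was higher with Dox in HE, where 4.7% of expressed genes were called higher, and 2 each in HE2 (5.17%), progenitors (3.03%) and myeloid progenitors (5.13%). In myeloid progenitors 1 member, Npy, was lower, beside 1.18% of expressed genes, and 0 members were lower in HE (2.39%), HE2 (2.05%) and progenitors (0.704%). Nothing is read from these shares, because the choice of members rested on the same contrasts. Within a slide, Pnoc differed with Dox by 1.78 and 2.15 in HE, by 2.89 and 3.23 in HE2 and by 4.73 and 4.78 in progenitors, and Cck by 3.87 and 4.50 in HE2 and by 4.94 and 4.97 in progenitors. The value of 4.73 for Pnoc and 4.94 for Cck set the second induced progenitor array against the additional uninduced array on slide 3. For Npy in progenitors the values within slides were 0.016 on slide 1 and 1.28 on slide 3.

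The normal course of the 4 genes was tested between uninduced stages, a contrast that did not choose the members although it shares the uninduced arrays with those that did. From HE to HE2, 0 members passed the threshold, which 5.07% of expressed genes did in either direction. Pnoc came closest, 1.04 lower in HE2 (SE 0.28, limma adjusted P = 0.0225), and all 3 HE2 arrays were below the 3 HE arrays, which held for 13.3% of expressed genes. HE and HE2 arrays with the same replicate number deviated together from their group means, and with the number as a block Pnoc passed (limma adjusted P = 0.0144). Without uninduced HE array 3 it was 0.76 lower in HE2 and without uninduced HE array 1 it was 1.25 lower, which passed.

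From HE2 to progenitors 2 members passed, beside 5.39% of expressed genes. Pnoc fell by 1.88 (SE 0.32, limma adjusted P = 0.000568), to a level at which 1 of 2 progenitor arrays was well above background. Npy rose by 1.73 (SE 0.25, limma adjusted P = 0.000126), and both progenitor arrays lay above the 3 HE2 arrays, as for 17% of expressed genes. With the replicate number as a block, which leaves 2 arrays a group and a number that does not pair them, neither Pnoc nor Npy passed. Penk was 1.11 higher (SE 0.31, limma adjusted P = 0.029) and did not pass, though it did with 75th percentile scaling, with an adjusted P of 0.05 as the threshold and with the additional array as a replicate. From progenitors to myeloid progenitors 2 members passed, beside 13.9% of expressed genes. Npy rose by 3.42 (SE 0.25, limma adjusted P = 2.81e-08), or 10.68-fold, and Penk by 2.87 (SE 0.31, limma adjusted P = 2.13e-06), or 7.33-fold. The stages were on different slides here, and the additional progenitor array on slide 3 read 5.95 for Npy and 7.34 for Penk, below the lowest uninduced myeloid values on that slide of 10.17 and 9.997. For Npy and Penk, 28.9% of expressed genes were like them in having all myeloid arrays above the progenitor arrays. Cck passed at 0 of the 3 transitions, with differences between -0.43 and 0.11.

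Between induced stages the differences are a description. From HE2 to progenitors the induced mean of Pnoc differed by -0.36, against -1.88 without Dox, and from progenitors to myeloid progenitors by 1.05, against 0.11. From induced progenitors to induced myeloid progenitors Penk was higher by 4.44, against 2.87 without Dox, and Npy by 1.61, against 3.42. Cck differed by 0.24 and 0.35 at these last 2 steps with Dox. The difference between these steps with and without Dox was not tested.

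The expressed genes whose profile was most like that of each member were taken by Pearson correlation over the 22 fitted arrays, which share the stages, the Dox groups and the slides, so that r describes the profile only. For Pnoc these were Sapcd1 (r = 0.953), Maged1 (0.951) and Chst1 (0.944), a sulfotransferase of keratan sulfate. Since these genes were picked for following a member over the same arrays, their own differences are given with no test. Chst1 was higher with Dox by 2.21 to 3.84 over the 4 stages, Sapcd1 by 1.43 to 4.13 and Maged1, a MAGE family protein, by 0.68 to 2.81. For Cck they were Kif2a (0.911), a microtubule-depolymerising kinesin, Fras1 (0.888), an extracellular matrix protein, and Spink2 (0.860), a serine protease inhibitor. With Dox Kif2a was higher by 0.50 in HE and by 0.64 to 1.06 at the later stages, Fras1 by 1.09 in HE and 2.21 to 3.88 later, and Spink2 differed by -0.04 in HE and by 1.56 to 1.98 later.

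Penk was most like Oasl2 (r = 0.990), Rtp4 (0.987) and Igtp (0.987), all known as interferon-response genes. From uninduced progenitors to myeloid progenitors Oasl2 was higher by 3.60 (SE 0.27), Rtp4 by 3.39 (SE 0.30) and Igtp by 3.52 (SE 0.27), beside 2.87 for Penk. With Dox Rtp4 differed by 1.16 in myeloid progenitors, -0.97 in HE2 and -0.99 in progenitors. Npy was most like Gp1bb (r = 0.985), a platelet glycoprotein of the megakaryocyte line, Kel (0.980), a red cell surface protein, and Hbb-bs (0.979), an adult beta globin. From uninduced progenitors to myeloid progenitors Gp1bb was higher by 3.78, Kel by 5.61 and Hbb-bs by 5.01. With Dox in myeloid progenitors Gp1bb differed by -1.27 (SE 0.21), Hbb-bs by -1.06 (SE 0.27) and Kel by -0.72. The globin probe may read more than one near-identical globin gene. Among the members, Penk and Npy had r = 0.909 and Pnoc and Cck r = 0.809, and the other pairs lay between -0.23 and 0.20.

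**Figure D3:**
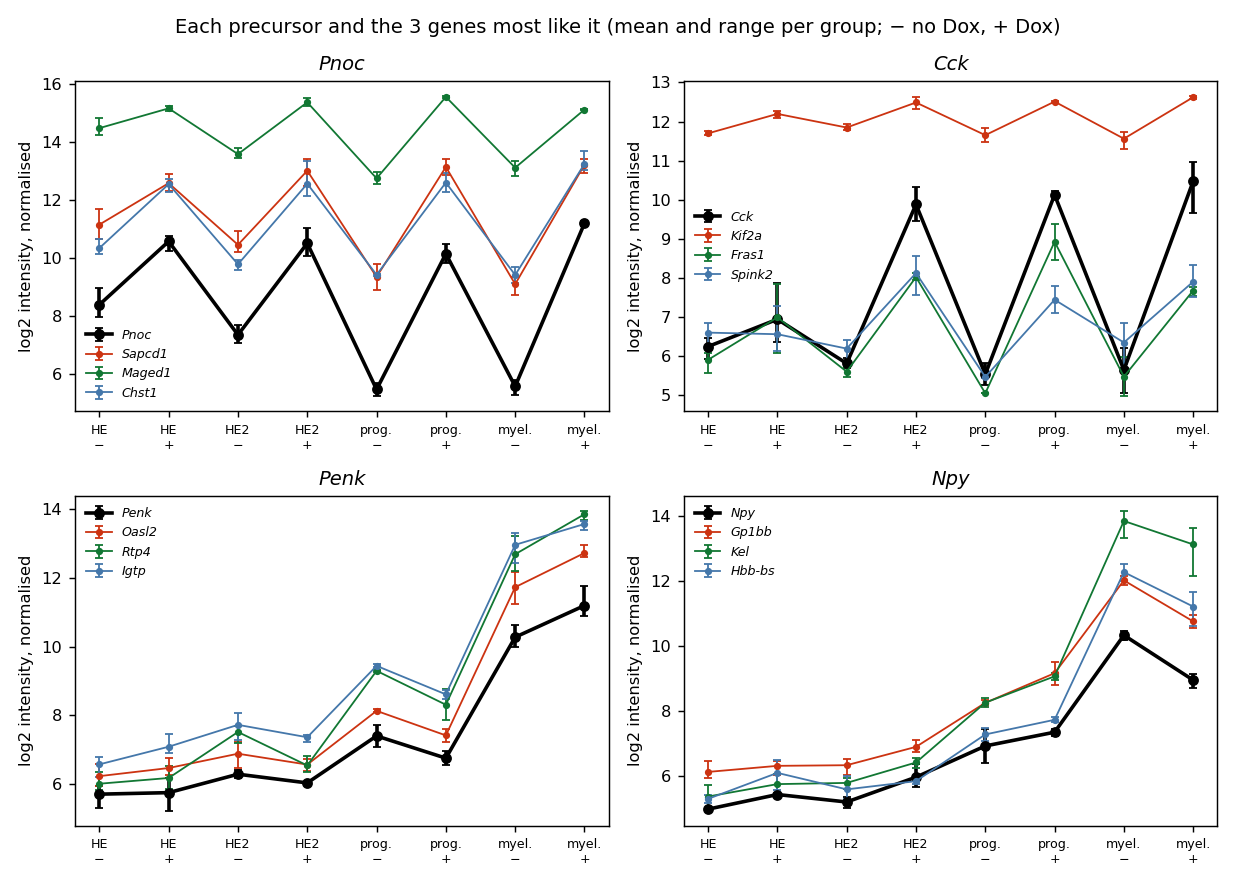
Group means of the log2 intensity (points, with bars from the lowest to the highest array) of each member (black) and of the 3 genes with the highest correlation to it, over the 8 groups in order of stage, without (−) and with (+) Dox. The genes like Pnoc stand higher with Dox at each stage, and those like Penk and Npy stand highest in myeloid progenitors in both arms.

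The other genes of the pathway were read from whole lists by role. Of 61 other precursors of neuropeptides and peptide hormones, 59 had a probe and 33 were expressed. With Dox 6 of these 33 rose and 3 fell in HE, 5 rose in HE2 cells, 5 in progenitors and 4 in myeloid progenitors, and 0 fell at these 3 stages. The shares of 18.2%, 15.2%, 15.2% and 12.1% called higher stood beside the backgrounds of 3.03 to 5.17% given above. Of all expressed genes, 2.39% were called lower in HE and 0.704% to 2.05% at the later stages. The median difference of the 33 was 0.27, 0.19, -0.13 and 0.12, beside -0.04 to -0.01 over all expressed genes. Trh, the precursor of thyrotropin-releasing hormone, rose at every stage, by 6.15 (SE 0.36), 5.73, 4.21 and 4.83, or 70.8-fold, 53.0-fold, 18.5-fold and 28.5-fold. Ucn, the precursor of urocortin, a peptide of the corticotropin-releasing family, rose at every stage too, by 1.78 to 3.94.

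Other precursors passed at some stages. Sct (secretin, a gut hormone) rose by 3.52 in HE, 2.96 in HE2 and 2.57 in progenitors, and its myeloid difference was below the threshold. Nts (neurotensin) rose by 2.82 in HE2 cells, 2.27 in progenitors and 2.91 in myeloid progenitors. Tac4, which encodes tachykinin peptides of haematopoietic cells, rose by 2.67 in HE and 1.11 in HE2. In HE alone Npw rose by 1.64, Grp (gastrin-releasing peptide), not well above background on any uninduced HE array, was at least 2.86-fold higher, and Npvf fell by 1.00. Apln (apelin) fell with Dox by 1.94 in HE and rose by 1.71 in myeloid progenitors, and Edn1 (endothelin 1) fell by 1.91 in HE and rose by 2.14 in progenitors. Between these stages the response differed by 3.65 (SE 0.54) for Apln and by 4.05 (SE 0.59) for Edn1. These differences carry no P value, because the 2 genes were picked for calls in opposite directions. In the 5 pathway lists together, the 6 genes called higher in progenitors were 2 without the second uninduced progenitor array, and the 6 called lower in HE were 3 without the third induced HE array.

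**Figure D4:**
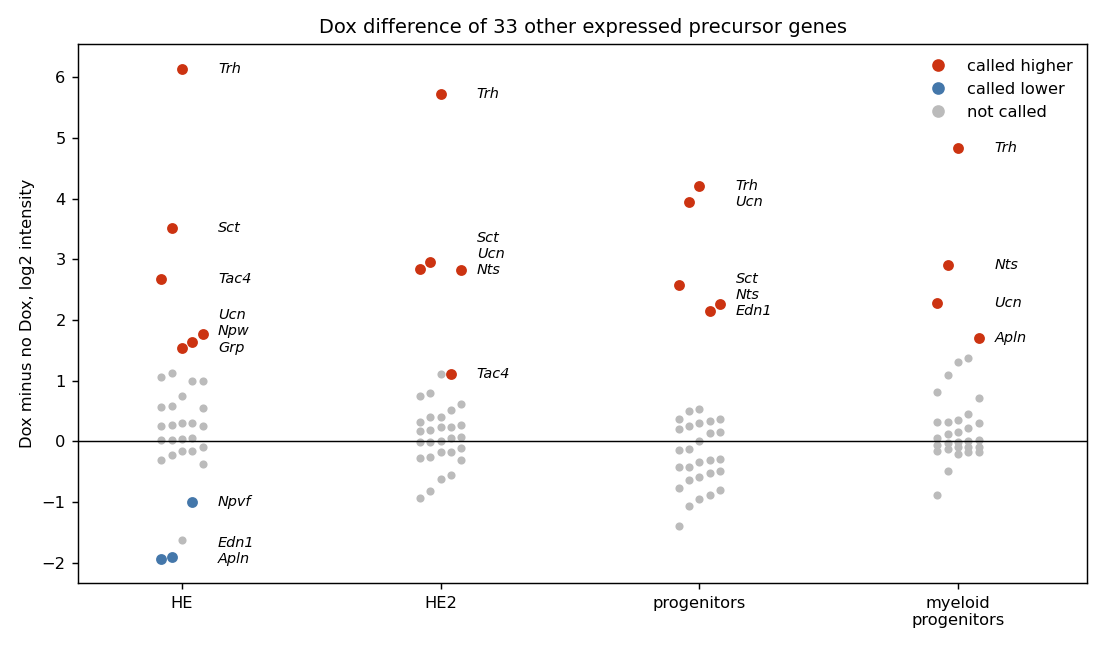
Difference with Dox (log2 intensity, y axis) of the 33 expressed precursor genes other than the 4 members, 1 point per gene at each stage, with called genes named beside their points (names of close points are moved apart, and Grp in HE stands at its fitted value). Trh stands highest at each stage, at 6.15, 5.73, 4.21 and 4.83, and Apln and Edn1 appear among the genes called lower in HE and called higher later.

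The enzymes that mature neuropeptides were nearly all expressed, 16 of 17, with Pcsk1, a main convertase of endocrine cells, as the exception. With Dox 1 of the 16 rose in HE, 2 rose at the HE2 stage, 3 in myeloid progenitors and 0 in progenitors, and 0 fell. The shares called higher were 6.25% in HE, 12.5% in HE2, 18.8% in myeloid progenitors and 0% in progenitors, beside 4.7%, 5.17%, 5.13% and 3.03% of all expressed genes. Qpct, which forms the pyroglutamate at the end of peptides such as thyrotropin-releasing hormone, rose by 1.65 in HE and 2.12 in HE2. Ctsl (cathepsin L) rose by 1.33 in HE2 and 1.36 in myeloid progenitors. In myeloid progenitors Cpe (carboxypeptidase E) rose by 2.20 and Furin, a convertase of the Golgi, by 1.49. The amidating enzyme Pam passed at 0 stages with Dox.

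Of 19 granins and genes of dense-core vesicles, 16 were expressed. With Dox 1 of the 16 rose in each of HE, HE2 and progenitors and 2 rose in myeloid progenitors. These shares of 6.25% and 12.5% stood beside 3.03% to 5.17% of all expressed genes. In HE 2 fell, where 2.39% of all expressed genes were called lower. Syt7, a calcium sensor of exocytosis, rose by 1.63 in HE, Rab3a, a small GTPase of secretory vesicles, by 1.17 in HE2 and Cplx2 (complexin 2) by 1.04 in progenitors. Scg2 (secretogranin 2) was at least 3.60-fold higher in induced myeloid progenitors, where it was not well above background on any uninduced array. In HE the monoamine carrier Slc18a2 fell by 1.82 and the vesicle GTPase Rab27b fell by 1.31. The granins Chga and Chgb were called at 0 stages.

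Of 11 receptors for the peptides of the 4 precursors, 5 were expressed (Oprl1, Oprm1, Npy2r, Npy4r and Npy5r), and both cholecystokinin receptors, Cckar and Cckbr, were not. None of the 5 passed the limma threshold at any stage with Dox, and 1 had an unadjusted P under 0.05, Npy2r in progenitors (difference 0.97, SE 0.37, limma adjusted P = 0.139). Oprl1, the receptor of nociceptin, read 8.18 and 8.45 on average in uninduced and induced HE and 8.48 and 8.03 in myeloid progenitors. Of 12 enzymes that degrade peptides 10 were expressed. In HE 1 of the 10 fell, beside 2.39% of all expressed genes, namely Mme (neprilysin), which cuts enkephalins, by 1.42. In HE2 1 of the 10 rose, beside 5.17% of all expressed genes. This was Dpp4, not well above background on uninduced HE2 arrays and at least 2.10-fold higher with Dox.

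Genes that lie next to the members were read by the same test. In the RefSeq order of GRCm38.p6, the 2 nearest expressed genes on each side of every member made 16 neighbours. With Dox 0 of 16 were called higher at any stage, which is near the 3.03% to 5.17% of all expressed genes. In HE 1 was called lower, beside 2.39% of all expressed genes. This was Mpp6, a neighbour of Npy, lower by 1.04 (SE 0.21, limma adjusted P = 0.00246, fitted without 1 HE array whose spot was an outlier). Gsdme, another neighbour of Npy, was 0.92 higher in HE (SE 0.22, limma adjusted P = 0.00706) and Ccdc126 0.70 higher in HE2 (SE 0.17, limma adjusted P = 0.00713), both under 2-fold. The largest difference of a neighbour of Pnoc or Cck was -1.04 for Zfp395 in progenitors (SE 0.42, limma adjusted P = 0.169).

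Markers of other cell types were read beside these results. Of 22 neuronal markers 19 were expressed, and Map2, Dcx and Neurod1 were not. With Dox 4 of the 19 rose in each of HE, HE2 and myeloid progenitors and 3 rose in progenitors, and 0 fell. These shares of 21.1% and 15.8% stood beside the 3.03% to 5.17% of all expressed genes called higher. Ncam1 (an adhesion molecule) and Nefl (neurofilament light chain) rose at all 4 stages, by 1.99 to 2.68 and 1.76 to 3.46, Gap43 at the last 3 by 1.97 to 3.40, and Rbfox3 (NeuN) in HE and HE2 by 2.78 and 2.69. The synaptic genes Syp and Snap25 were called at 0 stages. The summed intensity of the 22 was 31866 to 43426 in uninduced and 65667 to 113981 in induced HE, 11779 to 22554 and 38391 to 44734 in HE2, 9654 to 11144 and 13297 to 19894 in progenitors, and 11933 to 16834 and 54947 to 69008 in myeloid progenitors.

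Of 12 enteroendocrine and pituitary markers 4 were expressed, among which Insm1, a transcription factor of endocrine and neural cells, rose with Dox at every stage, by 1.98, 2.72, 2.96 and 2.74. Pax4, Pax6, Isl1, Pou1f1, Gh, Prl, Cga and Neurod1 were not expressed. The summed intensity of these 12 was 1059 to 1793 without and 2363 to 5254 with Dox in HE and 541 to 590 and 872 to 1076 in myeloid progenitors. Of 8 endothelial markers 0 were called with Dox in HE, 2 rose in HE2 cells, 3 in progenitors and 6 in myeloid progenitors, beside 5.17%, 3.03% and 5.13% of all expressed genes. Their summed intensity in myeloid progenitors was 65280 to 76139 without and 286267 to 358129 with Dox. Of 8 markers of haematopoietic progenitors 2 fell in HE, 2 in HE2 and 1 in progenitors, and of 8 myeloid markers 2 fell in HE2 and 2 in progenitors, where 0.704% to 2.39% of expressed genes were called lower. The summed intensity of the myeloid markers was 10920 to 16477 without and 3949 to 5383 with Dox in HE2, 34529 to 43983 and 20384 to 25503 in progenitors, and 22435 to 36930 and 17175 to 23191 in myeloid progenitors. The part of these cells in the levels of the 4 genes was not tested.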

How the data were processed

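Total RNA was labelled with Cy3 and hybridised to Agilent mouse arrays. The authors deposited the median intensity of each spot and of its background, read with Feature Extraction (10.7.1.1 per the labels, 10.7.3.1 per the file headers), and a table of log2 values that the authors had background corrected and quantile normalised, used as an alternative. In that table, 6 columns were nearest to another array of the same group. From the intensities, background was corrected with normexp (offset 16), 3671 control spots and outlier spots were left out, the 23 arrays were quantile normalised, and spots of a probe were averaged. Of 55681 probes 26582 were matched by accession to a symbol in RefSeq GRCm38.p6. That table gave names and gene order, and its gene coordinates were not used, since the array was annotated on another build. The probe with the highest mean stood for each gene. Group means were fitted to 22 arrays with limma 3.58.1 (lmFit and eBayes, 14 residual degrees of freedom) in R 4.3.3, with Benjamini-Hochberg adjustment over 15202 expressed genes. Interaction terms were fitted the same way and are given without P. The number of arrays limits the precision. The third induced myeloid array is a biological replicate by its title and a technical one by its description, and was used as a replicate. A probe not well above background on all arrays of a group gave a bound, against the higher of its own signal and the lowest signal well above background. Such bounds hold for the main processing and can be lower under the alternatives. Summed marker levels are sums of normalised linear intensities. No columns of other samples were left out (0).

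The members, lists and neighbours were chosen with earlier results of these data known. Named genes were the members, the 3 most similar genes of each, up to 3 called genes per pathway list and comparison with the largest change, called receptors and nearest neighbours, Runx1t1 and Runx1. Other genes, among them markers and genes that were not called, were named after their values were seen. Uninduced HE and HE2 arrays of the same number deviated together (correlations of 0.394, 0.795 and 0.608 across genes), so their numbers were taken to pair them. On simulated data with 200 genes changed by 1.5 (log2), the fit recovered 85.5% of them for the Dox contrast in HE, 86% for HE2, 78.5% for progenitors and 85% for myeloid progenitors. It recovered 87.5%, 76% and 76.5% for the 3 uninduced steps, with 5 to 9 false calls among 15202 genes. The simulated noise was independent between genes and arrays. It held no effect of slide, scan day or replicate number, so false calls from such effects were not measured. Alternatives were offset 50, no background correction, 75th percentile scaling, the deposited log2 values, other filters and probe summaries, an adjusted P of 0.05, fits of the groups compared, slide and replicate number as blocks, leaving out each array, and the additional array as a replicate. Values within slides and correlations without myeloid arrays were added after the data were seen. The second probe of a member could not be tried, as each had 1. A result of the vesicle gene list is not reported here.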

Additional observations from a re-analysis of the deposited data

Results flagged for a closer look

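Penk differed with Dox in opposite directions between stages without overlap of the arrays. The differences were -0.25 (SE 0.27) in HE2, -0.65 (SE 0.34) in progenitors and 0.92 (SE 0.27) in myeloid progenitors. Such separations were shown by 15.2%, 26.4% and 23.9% of expressed genes, and the difference between stages was not tested. Npy also differed in opposite directions, by 0.45 in HE and 0.77 in HE2, both near background, and by -1.39 in myeloid progenitors. Its separations were shown by 14.2%, 17% and 22.7% of expressed genes. This was not tested either. The response of Edn1 to Dox was 4.05 higher (log2) in progenitors than in HE and that of Apln 3.65 higher in myeloid progenitors than in HE. Both genes were picked for calls in opposite directions at the 2 stages, so these interaction terms are a description.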

How the results depend on the processing

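The direction of every Dox difference of Pnoc and Cck was the same under all alternatives and within slides, with ranges of 1.78 to 2.47, 2.89 to 3.38, 3.89 to 5.18 and 4.86 to 5.74 for Pnoc from HE to myeloid progenitors and 0.23 to 0.98, 3.44 to 4.50, 3.83 to 4.97 and 4.10 to 5.23 for Cck. Penk ranged from -0.25 to 0.31, -0.31 to -0.17, -0.97 to -0.33 and 0.63 to 1.09, and Npy from 0.24 to 0.68, 0.45 to 1.17, -0.097 to 1.28 and -1.48 to -1.27. The number of members called higher with Dox was the same throughout at each stage. Where a count changed, the cause was not tested. With 75th percentile scaling, 0 members were called lower in myeloid progenitors, where Npy was 1.29 lower, and 1 member (Pnoc) was called between uninduced HE and HE2, as with an adjusted P of 0.05, the slide as a block and the replicate block (1 each). Under that scaling the median difference of all genes with Dox was -0.19 in progenitors and -0.14 in myeloid progenitors, in place of -0.04 and -0.02. From uninduced progenitors to myeloid progenitors it was -0.25 in place of -0.12. At this step 802 genes were called higher and 1371 lower in place of 1064 and 1054. Between uninduced HE2 and progenitors 3 members passed, with Penk, under that scaling, with an adjusted P of 0.05 and with the additional array, 1 passed in a fit of the groups compared and 0 with the replicate block, which uses only the numbers both groups hold, and between progenitors and myeloid progenitors 1 passed with it. Under the replicate block Cck and Pnoc changed sign there, at -0.17 and -0.0052, and neither was called. Without single arrays, Cck ranged from -0.56 to 0.0031 between HE2 and progenitors and from -0.17 to 0.41 between progenitors and myeloid progenitors, and Pnoc from -0.12 to 0.33 there. Members called between HE and HE2 ranged from 0 to 1 without single arrays.

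Pathway genes called lower with Dox in HE were 6, and 0 in a fit of the groups compared, 2 with the replicate block and 3 to 7 without single arrays. Those called lower in HE2 were 0, and 1 with 75th percentile scaling, 1 with an adjusted P of 0.05 and 0 to 1 without single arrays. Those called higher in HE2 were 9, and 5 with the replicate block. In progenitors 6 were called higher, and 3 in a fit of the groups compared and 2 to 6 without single arrays, and 0 lower, and 1 with the replicate block and 0 to 1 without single arrays. The replicate numbers pair only uninduced HE and HE2 arrays in these data. Of the 3 genes most like each member, Spearman's rho kept 1 for Pnoc, 1 for Cck, 1 for Penk and 0 for Npy, and Pearson's r without myeloid arrays kept 1, 0, 0 and 1. The deposited log2 values kept 3, 3, 2 and 3. Probes not well above background, as for Pnoc and Npy in some uninduced groups, give only bounds.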
